A study of Caenorhabditis elegans with 7 samples.

Results

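The major sperm protein genes of Caenorhabditis elegans were taken as all genes whose WBcel235 symbol is msp- followed by a number. There are 31 such genes, and 26 of them were among the 27909 genes with a 3′ UTR entry in which reads were counted. The study fed L4 larvae the uracil analogue 4-thiouracil and sequenced the 3′ ends of their total RNA, to find which transcripts carry the label when a FLP recombinase is present in the hypodermis, the skin of the worm. The hypodermal FLP group was strain BN1190 with dpy-7p::FLP (3 libraries), in which the dpy-7 promoter drives FLP in the hypodermis. The control group was strain BN1158 without FLP (4 libraries). Both strains had fed for 28 h at 20 °C and then received 4-thiouracil for 17 h, and each library came from pooled whole larvae of 3 plates with about 350 animals each. No other allele of either strain is named in the labels, and nothing says whether replicates were separate cultures, so p-values measure only the spread between these libraries, which may be technical.

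In this kind of labelling, thiouracil enters RNA where a uracil phosphoribosyltransferase is made, and alkylation turns the labelled positions into T>C mismatches in the reads. Major sperm proteins are small, abundant proteins of nematode sperm. They polymerise into the filaments that let the amoeboid spermatozoa crawl without actin, and they are released as a signal that promotes oocyte maturation and contraction of the gonadal sheath. Their genes are transcribed in spermatocytes, which in hermaphrodites form during the L4 stage, and the proteins are packed into fibrous bodies until the sperm are made. They are not known as products of the hypodermis.

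The libraries held 5040697 (control replicate 2) to 61924868 (hypodermal FLP replicate 1) gene reads. Reads with at least 1 T>C mismatch made up 3.35%, 3.57% and 3.76% of gene reads in hypodermal FLP replicates 1 to 3, against 2.64%, 4.58%, 2.79% and 2.63% in control replicates 1 to 4. Reads with a T>C mismatch are called labelled reads here, in both strains, and the origin of the mismatches in the strain without FLP was not tested. Control replicate 2 stood above all other libraries in this value. Leaving it out therefore lowers the mean labelled share of the controls by that choice alone. In the main tests, the calls of the members and the medians of members and lists are given with and without control replicate 2. The file headers name a flow cell for 5 libraries and none for the first replicate of each group.

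The 31 genes lie on 2 chromosomes, 13 on chromosome II and 18 on chromosome IV, with 17 on the plus strand and 14 on the minus strand. Each has a single exon, and 28 of the 31 encode 127 codons. The exceptions are msp-32 with 119 codons and msp-58 and msp-74 with 77 codons each. All 26 entries abut the stop codon of their gene in WBcel235, and none is shared with another gene's entry. They are short, with a median of 35 bases (24 to 45) against 98 bases over all 33967 entries kept, and they hold 8 to 20 Ts. The genes msp-31, msp-32, msp-45, msp-58 and msp-74 had no entry and were not analysed here.

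Neighbouring genes within 100 kb of each other form 7 clusters, a distance set after the positions were seen. On chromosome II these run from 4785898 to 4933410 (6 genes), from 5115102 to 5200180 (4 genes) and from 5797065 to 5810330 (msp-63, msp-142 and msp-64). On chromosome IV they run from 5055631 to 5065061 (msp-55, msp-57 and msp-53), from 5260589 to 5316906 (6 genes, msp-59 among them), from 9689015 to 9895014 (7 genes) and from 10095433 to 10143740 (msp-36 and msp-38). The members encode closely related proteins, and the deposited count of multimapping reads is 0 in every entry, so reads of near-identical copies may have been placed in a single gene or left out. Values of single members are uncertain to that extent.

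The family took 584091 reads in the 7 libraries. Reads come from transcript ends and were not divided by length, so levels are given as TMM-scaled CPM, that is, reads scaled to a common library size. Of the 26 members, 15 averaged 100 CPM or more, 8 lay between 10 and 100 CPM, and 3 lay under 10 CPM. The 10 members with the most reads held 66.0% of the family's CPM and the first alone 10.5%. The order of 21 members was much the same in every library, with a Spearman rho of 0.79 to 0.95 (median 0.87) over the 21 pairs of libraries, as a description of members that share libraries and depth.

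The most abundant member was msp-59 on chromosome IV, with 241, 409.5 and 306 CPM in hypodermal FLP libraries, against 251, 549.6, 413 and 262 CPM in control libraries. The groups overlapped, and control replicate 2 was the highest library. Its share of the family ranged from 8.45% to 16.2% between libraries. For msp-36 the values were 193, 274 and 209 CPM in hypodermal FLP libraries and 253, 446, 174 and 169 CPM in control libraries. For msp-33 they were 167, 253 and 197 CPM in hypodermal FLP libraries and 188, 437, 178 and 160.3 CPM in control libraries. In both genes the FLP libraries lay inside the range of the controls.

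The gene msp-49 had 164, 274 and 204 CPM in hypodermal FLP libraries, against 154, 391, 202 and 152 CPM in control libraries. The gene msp-40 had 195, 253 and 186 CPM in hypodermal FLP libraries, against 219, 257, 138 and 182 CPM in control libraries. All FLP values again lay inside the control range. The gene msp-81 had 205, 219 and 201 CPM in hypodermal FLP libraries, against 207, 292, 118 and 115 CPM in control libraries. The FLP libraries were close together and the controls fell on both sides of them.

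For msp-50, 162, 214 and 194 CPM were measured in hypodermal FLP libraries, and 143, 414, 108 and 116 CPM in control libraries. For msp-142, it was 177, 210.1 and 166 CPM in hypodermal FLP libraries, and 186, 313, 162 and 111 CPM in control libraries. Control replicate 2 was again far above the rest, and in msp-50 the other 3 controls lay below all FLP libraries. For msp-64, hypodermal FLP libraries had 175, 198 and 187 CPM, and control libraries 169.5, 363, 122 and 96.1 CPM. For msp-152, hypodermal FLP libraries had 158, 189.7 and 151 CPM, and control libraries 165, 324, 111 and 120.4 CPM. Among the 25 members with enough reads to test, control replicate 2 was the highest library for 23. The groups overlapped for all 26 members, whereas over all tested genes 2.62% had every hypodermal FLP library higher and 2.25% every one lower. With control replicate 2 left out, 5 of 25 members (msp-3, msp-50, msp-56, msp-64 and msp-77) had every hypodermal FLP library higher and 0 had every one lower, against 6.03% and 5.25% of all genes.

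**Figure D1:**
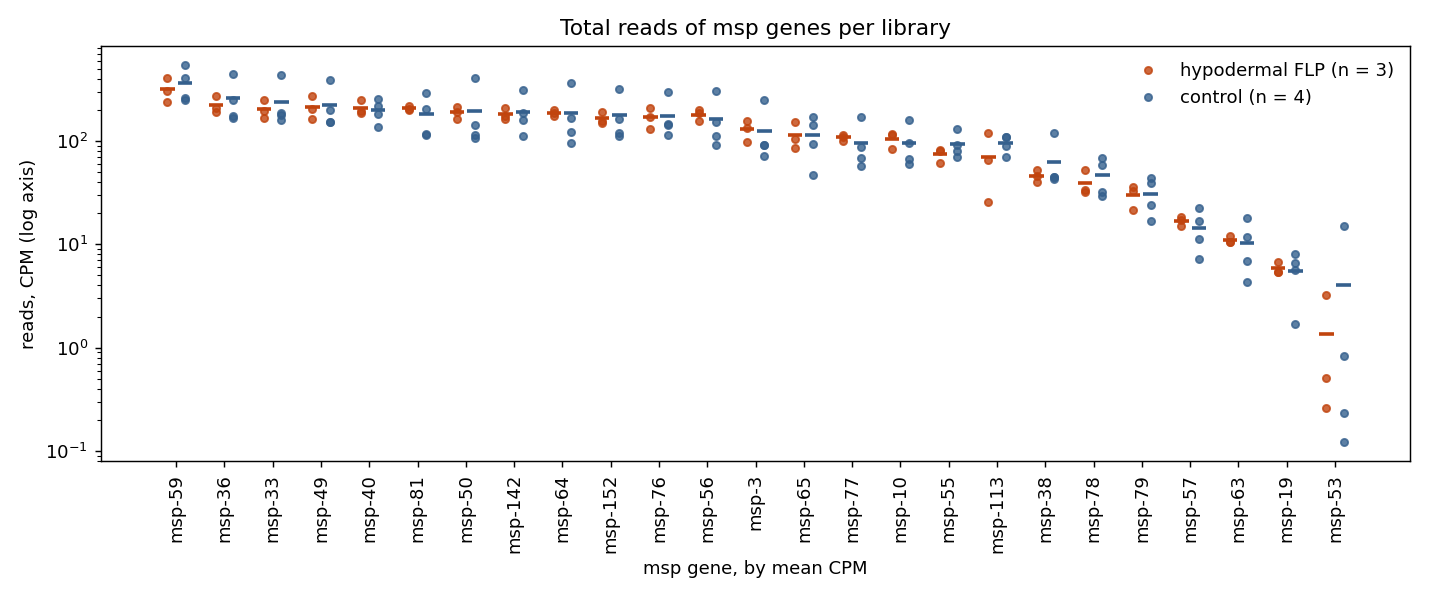
Total reads of each msp gene with a mean of at least 1 CPM, as TMM-scaled CPM on a log axis, genes ordered by mean level; each point is a library, hypodermal FLP to the left of control, and bars are group means. The groups overlap for every gene, and msp-53 spans from 0.121 to 15.0 CPM while msp-59 stays between 241 and 549.6 CPM.

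Total reads of the msp genes did not differ between the strains past the threshold. In edgeR's quasi-likelihood test over 12465 genes with Benjamini-Hochberg adjustment at 0.05, 0 of 25 tested members were called, 0 had an unadjusted p under 0.05, and DESeq2 called 0 as well. Over all genes the same test called 0.016% and DESeq2 0.193%, so a count of 0 of 25 lies near the background and says nothing particular about the members. At an unadjusted p under 0.05 the background was 2.28% with edgeR and 3.17% with DESeq2, which had 0 members there too. The median log2 fold change was -0.04 for the members, against -0.01 for all genes tested, with 9 members above 0 and 16 below. The share of all genes above 0 was 49.4%. Of the 25, 20 changed by less than 0.25 on the log2 scale, while the standard errors ran from 0.29 to 1.48 (median 0.38). Differences well above the standard error could also go uncalled. Without control replicate 2, for example, msp-50 had log2 0.65 with SE 0.24 and was not called.

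The highest fold changes were those of msp-57 (log2 0.23, SE 0.43) and msp-81 (log2 0.19, SE 0.35). The lowest were msp-53 (log2 -1.60, SE 1.48) and msp-38 (log2 -0.45, SE 0.40). The value of msp-57 rests on 17.3, 18.2 and 15.2 CPM in hypodermal FLP libraries, against 16.9, 22.6, 7.14 and 11.2 CPM in control libraries. For msp-38 the levels were 40.0, 52.0 and 46.2 CPM in hypodermal FLP libraries, against 44.6, 121, 45.03 and 42.98 CPM in control libraries. Apart from control replicate 2, all libraries of msp-38 lay within a narrow range.

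The gene msp-53 had 221, 10 and 5 reads in hypodermal FLP libraries, against 858, 1, 1 and 17 reads in control libraries. The reads thus came mainly from the first replicate of each group, the libraries whose headers name no flow cell, and the part of that difference in the result was not tested. Without control replicate 1 its log2 fold change was 1.64, of the opposite sign. The gene msp-113 also varied within groups, with 25.5, 120.3 and 65.8 CPM in hypodermal FLP libraries, against 69.8, 111, 109.6 and 89.5 CPM in control libraries. Between libraries, the share of the family held by a member varied by 7.34% (coefficient of variation, msp-76) to 186% (msp-53), with a median of 18.2%. The gene msp-51 had 11 reads in all and was not tested.

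Without control replicate 2, the highest library for 23 of these 25 members, the members shifted upward together. Their median log2 fold change was then 0.34 against 0.03 for all genes tested, with 21 of 25 above 0, against 52.3% of all genes. Members share these libraries and are not separate observations. The count of members called was 0, against 0.00793% of all genes. At an unadjusted p under 0.05, 4 members were higher in the hypodermal FLP strain, namely msp-50 (log2 0.65), msp-77 (0.62), msp-3 (0.64) and msp-56 (0.60), each with an adjusted p of 0.9999 in edgeR's test. Of all genes, 1.55% were higher at that level without this library and 3.87% differed in either direction. The members' median fell instead without control replicate 1 (-0.12), 3 (-0.17) or 4 (-0.22), from -0.04 with all libraries. The counts above 0 were then 11, 1 and 6 of 25, and the medians of all genes 0.01, -0.04 and -0.00015. The shares of all genes above 0 were 50.7%, 46.4% and 50.0%.

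**Figure D2:**
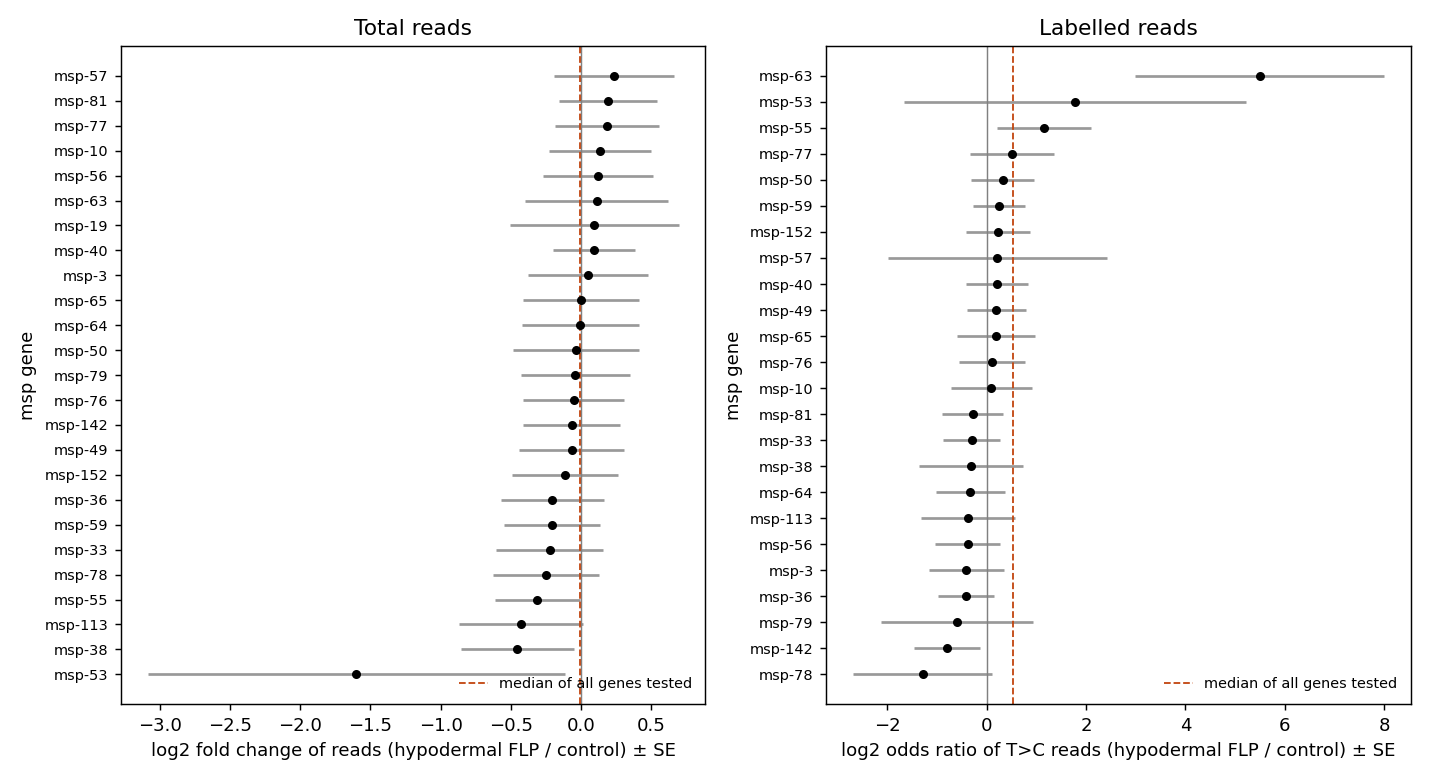
Log2 fold change of total reads (left) and log2 odds ratio of T>C reads (right), hypodermal FLP over control, with standard errors, for each tested msp gene; the dashed line is the median of all genes tested. Reads centre on 0 for the members and for all genes, whereas the labelling odds of the members centre on 0.10, left of the median of 0.54 for all genes.

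Summed over the family, the msp genes took 0.301%, 0.373% and 0.310% of gene reads in hypodermal FLP libraries, against 0.328%, 0.482%, 0.246% and 0.235% in control libraries. The means were 0.328% ± 0.0392 (SD, n = 3) in hypodermal FLP libraries and 0.323% ± 0.114 (SD, n = 4) in control libraries, a difference well inside the spread. Without control replicate 2 the control mean was 0.270% ± 0.0509 (SD, n = 3), below the hypodermal FLP mean. Within the 5 libraries with a flow cell in the header, the shares were 0.373% and 0.310% in hypodermal FLP libraries, against 0.482%, 0.246% and 0.235% in control libraries, and 0 of 24 members tested there were called in reads and 0 of 23 in labelling, as were 0% of 11447 and 0% of 8340 genes. In whole larvae, fewer spermatogenic cells and less RNA per cell cannot be told apart.

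Markers of spermatogenesis and of other germ cells were read beside the family, from lists written by hand. Of 21 tested spermatogenesis markers, such as the sperm chromatin genes spch-1 and spch-3, 0 were called in either test and 5 lay above 0 in reads, with a median log2 fold change of -0.35. Their summed level was 1399, 2007 and 1939 CPM in hypodermal FLP libraries, against 1429.7, 4635, 2457 and 1651 CPM in control libraries. Control replicate 2 was therefore the highest library for these markers as for the msp genes, and without it their median was -0.12 with 9 above 0. Markers of oocytes and eggshell, such as the eggshell gene cbd-1, summed to 1041, 1273 and 1105 CPM in hypodermal FLP libraries, against 1467, 1320.3, 1702 and 1789.7 CPM in control libraries. These groups did not overlap, and none of the 11 markers was called in reads (median log2 fold change -0.53, and -0.55 without control replicate 2). Of 10 hypodermis markers 8 lay above 0 (median 0.26) and of 7 tested adult stage markers 1 did (median -0.82), with 0 called in either list. Leaving out control replicate 2 gave medians of 0.30 and -0.54. None of the markers in any list with an entry was at 0 in every library, and the part of these cells in the msp values was not tested.

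Genes that act with the major sperm proteins had no calls either. Of the genes for assembly of fibrous bodies, which hold the protein in spermatocytes, 14 were tested for reads, 0 were called and the median log2 fold change was -0.16. The gene spe-18, needed for fibrous body assembly, had 152 ± 22.9 CPM in hypodermal FLP libraries (SD, n = 3) and 173 ± 70.0 CPM in control libraries (SD, n = 4). Of 13 tested sperm proteins that carry an MSP domain outside the family, 0 were called, with a median of -0.10. Their summed level kept close to a fixed proportion of the msp genes, which were 5.24 to 5.90 times as high in CPM in the 7 libraries. Against spermatogenesis markers the same ratio ranged from 1.04 to 2.08. Of 16 tested receptors and targets of the sperm signal and 11 genes of sperm activation and fertilization, 0 were called, with medians of -0.12 and -0.20. Leaving control replicate 2 out, the medians were 0.22 for the fibrous body genes, 0.23 for the MSP-domain proteins, -0.16 for the receptors and targets and 0.36 for activation and fertilization, again with 0 called. The lists share genes, for example msd-4 in the fibrous body and MSP-domain lists, so their medians are not separate results.

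**Figure D3:**
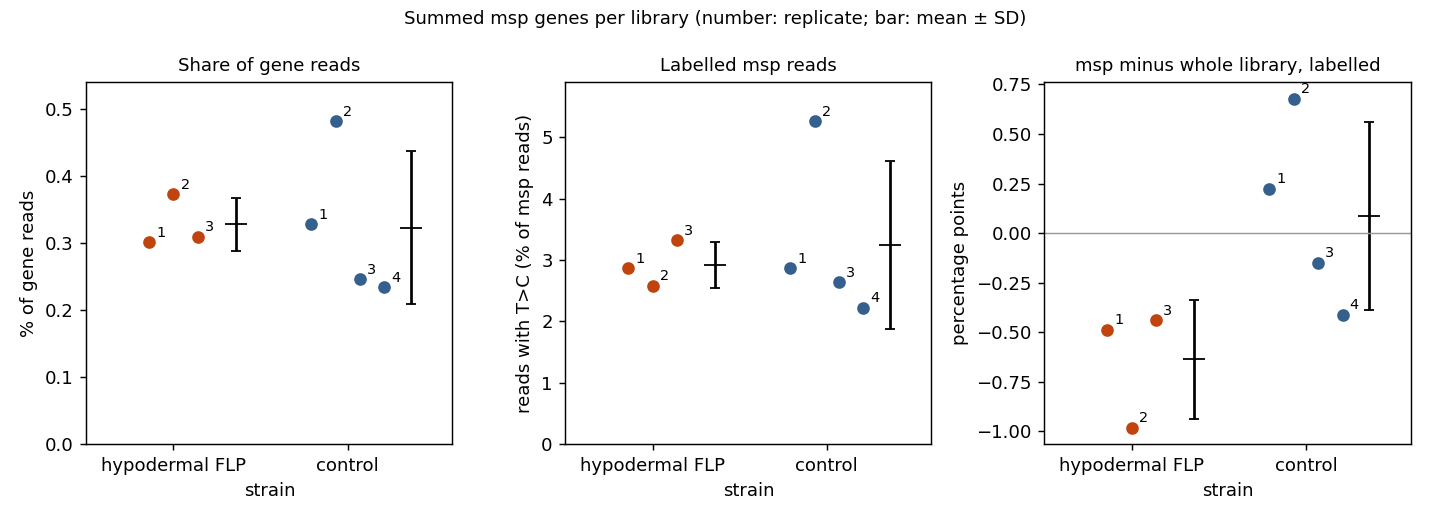
Summed msp genes per library, hypodermal FLP left of control, as share of gene reads (left), as labelled percent of msp reads (middle) and as labelled percent minus that of the whole library in percentage points (right); numbers are replicates and bars mean ± SD. Control replicate 2 is highest in all 3 panels, at 0.482% of gene reads and 5.26% labelled reads.

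Labelled reads were then compared, which is the measurement the study was made for. Of the msp reads, 2.87%, 2.58% and 3.32% carried a T>C mismatch in hypodermal FLP libraries, against 2.86%, 5.26%, 2.64% and 2.22% in control libraries. The groups overlapped, with means of 2.92% ± 0.374 (SD, n = 3) in hypodermal FLP libraries and 3.25% ± 1.37 (SD, n = 4) in control libraries. Without control replicate 2 the control mean was 2.57% ± 0.324 (SD, n = 3), and the sign of the difference turned. As this was the control with the most labelled msp reads in percent, leaving it out could only lower the control mean. T>C reads of the family were thus present in both strains, with and without FLP.

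Relative to their own library, the msp reads were labelled less than average in all hypodermal FLP libraries, by -0.486, -0.982 and -0.439 percentage points. In control libraries the difference was 0.225, 0.678, -0.149 and -0.410 points. The groups did not overlap, but control replicate 4 came within a small margin of hypodermal FLP replicate 3. On the scale of log2 odds against all other gene reads, the groups overlapped, with -0.23, -0.48 and -0.19 in hypodermal FLP libraries and 0.12, 0.21, -0.08 and -0.25 in control libraries. Of 24 single members, 0 were lower than the controls in every hypodermal FLP library on the percentage point scale, where 1.91% of 9219 genes were, and 0 were higher in every one, where 2.97% were. After control replicate 2 was left out, 4 members were lower in every one and 0 higher, where 5.66% of genes were lower and 6.02% higher.

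No member passed the test of labelling. In edgeR's quasi-likelihood test with Benjamini-Hochberg adjustment, 0 of 24 tested members were called, as were 0% of the 9821 genes tested. At an unadjusted p under 0.05, 1 member (msp-63) was higher and 0 were lower, against 281 genes higher and 40 lower over all genes (3.27%). The median log2 odds ratio was 0.10 for the members, against 0.54 for all genes, with 13 members above 0 and 11 below. The share of all genes above 0 was 70.0%. With the odds of each library centred on its pooled odds, the medians were -0.12 for the members and 0.30 for all genes. With centring on the median gene they were -0.49 for the members and -0.06 for all genes, a shift that the centring gives to all genes alike. The members' median was below that of all genes by 0.44, 0.42 and 0.43 under these 3 scalings, a description without a test. Centring adds the same value per library to every gene, so the gap was bound to stay nearly the same.

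The labelled groups overlapped for all 25 members with 1000 reads or more. Over all genes, 5.88% did not overlap with the hypodermal FLP libraries higher and 0.369% with them lower. When control replicate 2 was left out, 2 of 24 members (msp-55 and msp-77) had every hypodermal FLP library higher and 0 every one lower, against 15.7% and 0.628% of all genes. Without control replicate 2, 20 genes (0.206%) were called in labelling and 0 of them were msp genes. At an unadjusted p under 0.05, msp-63 alone among the members was higher, against 6.95% of all genes higher and 7.26% in either direction. The medians were then 0.43 for the members and 0.85 for all genes.

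The labelled share varied widely between members. Pooled over control libraries, the labelled share ran from 0 (msp-63) to 6.52% (msp-50), and msp-50 had 5.17% over hypodermal FLP libraries. Pooled values weight control replicate 1 most. By the mean over control libraries msp-56 was highest, with 5.64% ± 1.65 in hypodermal FLP libraries (SD, n = 3) and 7.91% ± 4.59 in control libraries (SD, n = 4), and msp-50 came after 5 other genes as well. For msp-50, the labelled share was 5.05%, 4.41% and 6.41% in hypodermal FLP libraries, against 7.79%, 8.74%, 1.67% and 2.31% in control libraries. For msp-59, the most abundant member, it was 1.75%, 0.382% and 0.839% in hypodermal FLP libraries, against 1.19%, 0.933%, 0.322% and 0.614% in control libraries. The pair differed in every library, with msp-50 higher each time. The order of the 21 members with at least 100 reads in every library had a Spearman rho of 0.50 to 0.93 (median 0.71) over the 21 pairs of libraries, again as a description.

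At the widest gap in the control values, 1.13 points between msp-49 at 3.84% and msp-78 at 2.71%, the 25 members fall into a set of 9 and a set of 16. The gap was chosen after the values were seen and the next widest was 1.05 points, so the sets are a description. The upper set comprises msp-50, msp-10, msp-36, msp-33, msp-56, msp-152, msp-81, msp-38 and msp-49. Summed, it was labelled at 4.62%, 4.62% and 5.86% in hypodermal FLP libraries, against 4.92%, 8.77%, 5.21% and 4.01% in control libraries. The other 16 genes summed to 1.23%, 0.785% and 0.912% in hypodermal FLP libraries, against 1.03%, 1.62%, 0.722% and 0.6997% in control libraries. The control values chose the sets, so only the hypodermal FLP values are separate from that choice, and in each of these 3 libraries the upper set was several times as labelled as the rest.

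The 9 genes were the 9 most labelled of 21 in hypodermal FLP replicates 1 and 2 and control replicate 4, and 8 of the 9 were in the other 4 libraries. They lie on both chromosomes, 4 on II and 5 on IV. Their entries have 33 to 45 bases with 14 to 20 Ts, against 24 to 40 bases with 8 to 18 Ts in the other set, so the ranges overlap but the upper entries tend to be longer. In level they averaged 55.9 to 245 CPM, inside the 2.88 to 348 CPM of the others.

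Some clusters held genes of 1 set and others of both, and no test of position was run. In the chromosome II cluster from 4785898 to 4933410, msp-33 and msp-152 belong to the upper set and msp-3 and msp-40 do not, and the pooled share was 3.52% in hypodermal FLP libraries and 3.22% in control libraries. In the chromosome IV cluster from 9689015 to 9895014, the neighbours msp-81, msp-10 and msp-56 belong to the upper set and msp-76, msp-79, msp-78 and msp-77 do not. Both genes of the last chromosome IV cluster, msp-36 and msp-38, belong to the upper set by labelled reads, at 4.19% in hypodermal FLP libraries and 5.63% in control libraries when pooled. The cluster of msp-49 and msp-50 on chromosome II had 5.07% in hypodermal FLP libraries and 5.09% in control libraries. No member between 5055631 and 5316906 on chromosome IV belongs to the upper set. Neither do msp-63, msp-142 and msp-64 on chromosome II, which together had 0.806% in hypodermal FLP libraries and 0.983% in control libraries. Close neighbours could differ in level, as msp-63 and msp-142, divergent genes 478 bases apart, had means of 10.6 and 189 CPM.

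**Figure D4:**
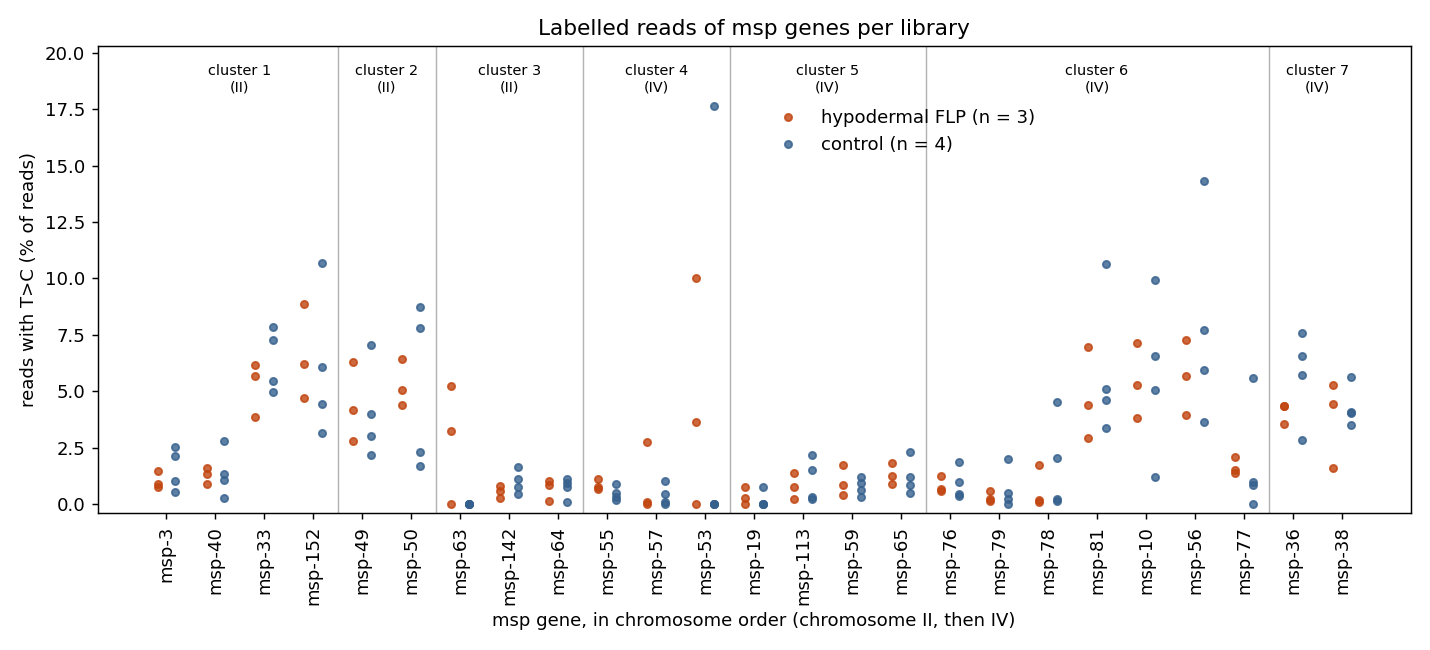
Reads with T>C as percent of reads for each msp gene with 1000 reads or more, in chromosome order and split by cluster; each point is a library, hypodermal FLP left of control. Genes such as msp-50, msp-33 and msp-59 have T>C reads in every library of both strains, and msp-59 stays at 1.75% or below in every library. The highest control point of msp-53 is 3 of 17 reads in control replicate 4.

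The largest log2 odds ratio was that of msp-63 (5.50, SE 2.50, unadjusted p 0.0280, adjusted p 1.0 in edgeR's test). It rests on 35 labelled reads, 23, 0 and 12 of them in hypodermal FLP libraries, against 0 in all control libraries. The hypodermal FLP share was 3.04% of 1153 reads (95% Wilson interval 2.19% to 4.19%), against 0 of 906 control reads, for which 3 counts would be a share of 0.331% and the Wilson upper limit is 0.422%. Intervals and limits here cover counting error only. The second hypodermal FLP library had no labelled read among 211. In the same test its unadjusted p was 0.104 without hypodermal FLP replicate 1, 0.121 without hypodermal FLP replicate 3 and 0.114 without control replicate 1. It stayed under 0.05 without hypodermal FLP replicate 2 (0.0110) and without control replicate 2 (0.0438), 3 (0.0326) or 4 (0.0425). The lowest adjusted p in these fits was 0.671, without control replicate 2. With msp-63 set against 3 control counts its log2 odds ratio was 3.24, still the highest of the members. The members' median of 0.10 could therefore not change. Limma on log2 odds gave 2.10 for msp-63.

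The next highest was msp-53 (log2 odds ratio 1.77, SE 3.44), where 9 of 236 reads were labelled in hypodermal FLP libraries and 3 of 877 in control libraries. Control replicate 1 gave 858 of those control reads and none was labelled. The means over libraries were 4.54% in hypodermal FLP libraries and 4.41% in control libraries, and without control replicate 1 the log2 odds ratio was -1.44. The lowest were msp-78 (-1.29, SE 1.40) and msp-142 (-0.79, SE 0.66). The gene msp-78 had 1.74%, 0.0959% and 0.163% labelled reads in hypodermal FLP libraries, against 4.53%, 2.05%, 0.205% and 0.153% in control libraries. Its values fall into higher and lower libraries in each strain. The gene msp-142 had 0.817%, 0.288% and 0.570% in hypodermal FLP libraries, against 1.13%, 0.744%, 1.64% and 0.439% in control libraries, and the groups overlapped.

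A read counted in an entry can extend past it, and its T>C mismatch can then lie outside the entry. For the msp genes the converted Ts inside the entry numbered 85.4 per 100 T>C reads at the median, against 97.9 for the 9084 genes with 1000 reads or more. The covered Ts per read were 12.6 for the members and 24.7 for those genes. For msp-36 only 341 conversions lay inside the entry for 2200 T>C reads, or 15.5 per 100. Likewise msp-77 had 60 for 280 (21.4 per 100) and msp-63 had 34.3 per 100. These 3 were the members under 50 per 100, and 11 had 90 or more, of which 7 belong to the upper set and 4 to the other set. For msp-36, the converted share of Ts was 0.0568% in hypodermal FLP libraries and 0.0937% in control libraries, against 0.380% in hypodermal FLP libraries and 0.404% in control libraries for msp-33, so these 2 genes, close in labelled reads, are apart in converted Ts. The sets were drawn on labelled reads. By converted Ts, msp-36 lay near msp-142 of the other set (0.0485% in hypodermal FLP libraries and 0.0981% in control libraries). Its cluster neighbour msp-38 had 0.316% and 0.324%.

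**Figure D5:**
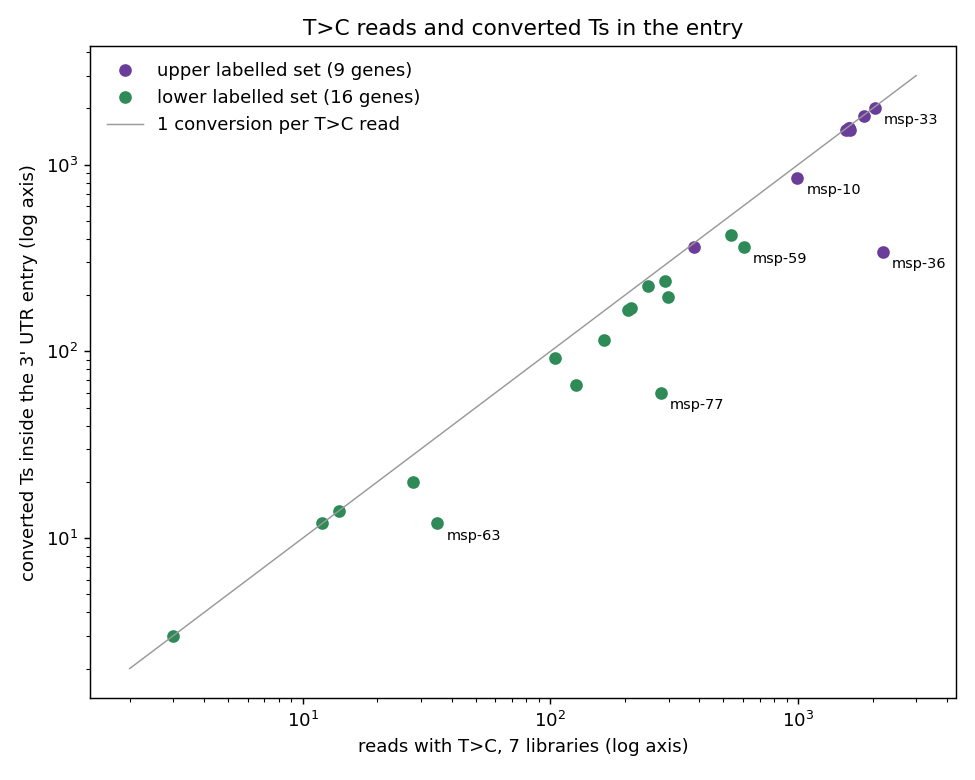
T>C reads (x axis, log) and converted Ts inside the 3′ UTR entry (y axis, log) of each msp gene, summed over 7 libraries; the line marks 1 conversion per T>C read and colours mark the upper and lower labelled sets. Most genes lie near the line, and msp-36, msp-77 and msp-63 lie far below it.

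The family as a whole was not set apart by its labelled share in control libraries. The quartiles were 0.589%, 1.20% and 4.26% for the 25 members, against 0.734%, 1.73% and 3.22% for all genes with 1000 reads. Among the 572 other genes with entries of 45 bases or fewer they were 0.360%, 1.32% and 3.15%. Sperm genes outside the family had labelled reads too. The MSP-domain sperm proteins had 0.865% ± 0.214 in hypodermal FLP libraries (SD, n = 3) and 0.957% ± 0.395 in control libraries (SD, n = 4). The fibrous body genes had 2.09% ± 0.380 in hypodermal FLP libraries (SD, n = 3) and 2.44% ± 1.22 in control libraries (SD, n = 4), with spe-18 at 4.93% ± 1.73 in hypodermal FLP libraries and 6.32% ± 4.49 in control libraries. The tested labelling counts were 11 for the fibrous body genes and 10 for the MSP-domain proteins, with 0 called and median log2 odds ratios of 0.10 and 0.16. The medians were 0.07 for 17 spermatogenesis markers and 1.67 for 4 genes of sperm activation and fertilization. They were 0.52 for 16 receptors and targets, 0.34 for 11 oocyte and eggshell markers and 0.37 for 7 adult stage markers. In these lists 0 genes were called. Hypodermis markers, such as the cuticle collagen col-10, had a median log2 odds ratio of 0.03 over 10 genes, with 0 called. Leaving out control replicate 2 gave 0.40 for the fibrous body genes, 0.58 for the MSP-domain proteins and 0.02 for the hypodermis markers. The other lists then had 0.34 (spermatogenesis), 2.16 (activation and fertilization), 0.90 (receptors and targets), 0.80 (oocyte and eggshell) and 0.63 (adult stage). The median of all genes was then 0.85, and 0 genes of these lists were called. The authors' deposited table lists 198 genes at a false discovery rate of at most 0.1, and 0 of them are msp genes. As it lists only 198 of the 27909 genes with an entry, 0 of 26 members says nothing particular about the family.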

How the data were processed

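Labelled and total reads were measured in 7 libraries, grouped by the sample titles. The counts (reads, T>C reads, covered and converted Ts per 3′ UTR entry) come from slamdunk 0.4.3 run by the authors on a WBcel235 annotation, per the file headers. The deposited fraction is converted over covered Ts, and the deposited score is a CPM that was not used. The p-values and adjusted values of the authors' deposited table served only to list its genes, and 21 columns of that table with values of single libraries were not used. The submitters' processing notes name DESeq2 and the build ce10. Coordinates are those of WBcel235, whose stop codons the msp entries abut. Read trimming: not given in the sources used here.

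Entries were joined to genes by transcript name (42202) or sequence name (4816), and 21 without a gene (0.00444% of reads) were left out. Of overlapping entries of a gene, the one with the most reads was kept. Genes with a mean of 20 reads or more per library were tested in edgeR 4.0.16 (R 4.3.3), TMM scaled, with all 7 libraries. Labelling was tested on T>C and other reads with a term per library, for genes with 10 or more T>C reads. The standard errors (SE) of both edgeR tests are the absolute log2 value divided by the square root of the test's F statistic. They are approximate and were not fitted directly. DESeq2 1.42.0, limma 3.58.1, other scalings and filters, and each library left out were tried as alternatives. Members and lists were chosen with earlier results of these data known. Named with values are the 10 members with the most CPM, the 2 highest and 2 lowest in each test, the most and least labelled, and for other lists genes among the 3 with most reads; others were chosen after their values were seen.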

Additional observations from a re-analysis of the deposited data

Results flagged for a closer look

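In 49 groups of 4 control libraries examined (levels and labelled shares of the members), 5 held a library far from the rest by Dixon's criterion for 4 values. Among separate groups chance gives about 1 in 20. These groups all share the same 4 libraries, so that rate is no measure for their number. In 4 of the 5 flagged groups control replicate 2 was high: msp-33 had 437 CPM there and 160.3 to 188 CPM in the other controls, msp-50 had 414 CPM against 108 to 143 CPM, msp-3 had 251 CPM against 71.1 to 92.2 CPM, and msp-38 had 121 CPM against 42.98 to 45.03 CPM. In the fifth, msp-53 had 15.0 CPM in control replicate 1 and 0.121 to 0.8293 CPM in the other controls. Hypodermal FLP replicate 1, likewise without a flow cell in its header, had 3.25 CPM of msp-53. The causes were not tested.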

How the results depend on the processing

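The counts of msp calls (0 in reads, 0 in labelling) were the same under all alternatives run, and the family's share and labelled percent moved by less than the SD of the control libraries, which control replicate 2 itself widens. Leaving out single replicates gave a difference in share of -0.0243 to 0.0581 points and in labelled percent of -0.663 to 0.350 points, where the value without control replicate 2 had the opposite sign to the -0.322 of all libraries. Replicate numbers did not pair the samples throughout: deviations of same-numbered libraries correlated at 0.36, 0.095 and -0.077. The value of the first replicates, whose headers name no flow cell, was the highest of any pair across the groups. The next highest was 0.20, for hypodermal FLP replicate 3 with control replicate 2. With the replicate block, on replicates 1 to 3, 0 members were called in reads and 0 in labelling, as were 0 of 12498 and 0 of 9565 genes over all. Some single genes reversed, and the cause was not tested. Without single replicates, the log2 fold change of reads ranged from -3.39 to 1.64 for msp-53, -0.63 to 0.074 for msp-38, -0.013 to 0.53 for msp-57 and -0.43 to 0.064 for msp-59, and the log2 odds ratio of labelling from -1.44 to 2.03 for msp-53 and -0.32 to 0.80 for msp-59. Without control replicates 2 and 3 together, an alternative chosen after seeing the data, reads gave 0.082 for msp-38 and 0.32 for msp-59. The odds ratio of msp-59 was 0.25 with all libraries, -0.027 without those replicates, -0.031 in the flow cell libraries alone, -0.042 with converted Ts and -0.34 with centring on the median gene, also chosen later, which lowers all genes alike (median 0.54 with all libraries and -0.06 with centring). Standard errors of 0.29 or more in reads limit what could be detected.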
